A study of Mus musculus with 8 samples.

Results

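Axon guidance ligands and receptors carried 258 of the 38705 m6A peaks called in mouse embryonic fibroblasts (MEFs). The peaks were chosen by gene name alone, as those assigned to semaphorins (Sema), plexins (Plxn), neuropilins (Nrp1 and Nrp2), Slit and Robo genes, netrins (Ntn), Unc5 receptors, ephrins (Efna and Efnb) and Eph receptors (Epha and Ephb). They fell on 46 of the 9779 genes with a peak and merged into 146 of 21168 regions. A region is the union of peaks that overlap by at least 1 bp in any of the libraries. The name pattern for Unc5 also took Unc50, which is not a netrin receptor and had 1 peak, at a fold enrichment of 35.71 in control library 2. The other 45 genes belonged to 11 families.

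N6-methyladenosine (m6A), a methylated form of adenosine found within mRNA, was profiled by MeRIP-seq, in which fragments pulled down by an m6A antibody (IP) are sequenced beside an input library. MEFs, primary connective tissue cells, came from wild type C57BL/6 embryos at day 13.5 and were used at passages 5 to 6. Control cells stayed in complete medium, and starved cells spent 2 h in nutrient-deprived medium, with 2 IP and 2 input libraries per group. Lists of peaks of the 4 IP libraries, called by the authors over the inputs, were analysed, and values are given in the order control 1, control 2, starved 1, starved 2. The study calls the replicates biological, but the labels do not say whether each pair of libraries came from separate embryos.

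Axon guidance cues are secreted or membrane-bound proteins that steer growing axons and migrating cells by attraction or repulsion. Semaphorins signal through plexins, often with neuropilins as co-receptors, Slits through Robo receptors, and netrins through Dcc and Unc5 receptors. Ephrins are held on the cell surface and signal to Eph receptor tyrosine kinases on the neighbouring cell, with signals running in both directions. The same proteins act outside the nervous system in cell sorting, vessel growth and cell movement, and many are made by mesenchymal cells.

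The m6A writer complex favours adenosines in short motifs such as GGAC. To show what the strongest regions look like, 30 nt of transcript are given here at the GGAC nearest to the centre of each of the 5 regions in all 4 libraries with the highest geometric mean enrichment. Only exons of the GENCODE models were searched, and for Nrp1 the model ends before the centre of the region, so its site lies 452 bp away from the centre. They are printed 5′ to 3′ on the transcript strand with T for U, and capitals mark GGAC. The Nrp1 site lies at chr8:128503285-128503314 on the plus strand and the Sema3c site at chr5:17694800-17694829 on the plus strand. The other sites lie on the minus strand, at chr15:89155867-89155896 for Plxnb2, chr16:63773367-63773396 for Epha3 and chr4:136770041-136770070 for Ephb2. Coordinates are those of mm10, and a match to the motif shows its letters, not that the adenosine is methylated.
Nrp1: accacatttcaggGGACaccaacgtccatc
Sema3c: caaagattgctgtGGACcgtgtcaacgctg
Plxnb2: acagccggttcctGGACtgtaactgtctgc
Epha3: ccattggttttggGGACttgcaaggagacc
Ephb2: agaggtttacataGGACaaaggatcattaa

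Over the whole series, the lists held 8974 to 10103 peaks. The median fold enrichment of all peaks, the authors' ratio of IP to input background, averaged 12.2 ± 0.0424 (SD, n = 2) for control and 14.6 ± 0.0778 (SD, n = 2) for starved MEFs. The score of a peak, minus 10 times the log10 of its p-value, was 3100 or higher for 13.2% to 28.5% of the peaks of a library. Of all peaks, 8003 scored exactly 3100 and 296 scored more. No peak had a deposited false discovery rate below 5.56%. The lists give no reads, so depth, and with it the smallest detectable enrichment, is unknown. A site without a called peak is not shown to lack m6A. Peaks also depend on how much of a transcript was present, and fewer cells of a type cannot be told apart from less RNA per cell. Of 12 fibroblast markers 8 had a peak (13, 17, 16 and 14 peaks), although neither Col1a1 nor Vim did. Of 10 neuronal markers 5 had a peak (3, 2, 2 and 1 peaks), none in all 4 libraries. They were Map2 (1, 1, 0 and 1), Gap43 (1, 0, 1 and 0), Tubb3, Syn1 and Stmn2. Rbfox3, Dcx, Nefl, Nefm and Snap25 had none. Of 6 endothelial markers 2 had a peak (2, 1, 1 and 2 peaks), namely Kdr (2, 0, 1 and 2) and Tek (0, 1, 0 and 0). Pecam1, Cdh5, Tie1 and Emcn had none.

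Axon guidance genes bore 57, 66, 75 and 60 peaks, a mean of 61.5 ± 6.36 in control and 67.5 ± 10.6 in starved MEFs (SD, n = 2). Starved library 1 was the highest and starved library 2 lay between the control libraries, so the groups overlapped (difference 6, two-sided exact permutation test, p = 0.667, n = 2 per group). Among peaks with a false discovery rate under 20% the difference was 20 and the groups no longer overlapped (exact permutation p = 0.333, n = 2). The limit of 20% kept 45.5%, 53.1%, 63.1% and 59.2% of all peaks, more in both starved than in both control libraries. As a share of the peaks kept, axon guidance peaks differed by 0.261 points, also with the groups apart (exact permutation p = 0.333, n = 2). Among the best 8974 peaks of each list the difference in number was 11.5. With no limit, axon guidance peaks made up 0.564%, 0.669%, 0.769% and 0.669% of all peaks of a library. The genes with a peak numbered 31, 32, 37 and 32, a difference of 3 between the group means (exact permutation p = 0.667, n = 2). With 2 libraries against 2, this test cannot give a p below 0.333, so no comparison between groups below could reach 0.05.

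Of 68 annotated coding genes in the 11 families, 45 had a peak and 23 had none. The share of all annotated coding genes with a peak was not computed, so these counts show no trait of the families. Peaks were found for 12 of 20 semaphorins, 7 of 9 plexins, both neuropilins, 2 of 3 Slits and 2 of 4 Robo receptors. Netrins had peaks on 3 of 4 genes, Unc5 receptors on 3 of 4, A-type ephrins on 4 of 5, B-type ephrins on 2 of 3, EphA receptors on 4 of 9 and EphB receptors on 4 of 5. Genes without a peak included the class 4 semaphorins Sema4a, Sema4d, Sema4f and Sema4g as well as Slit1, Robo3, Robo4, Unc5a, Epha5, Epha8 and Ephb1. Whether those genes were expressed was not analysed here.

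**Figure D1:**
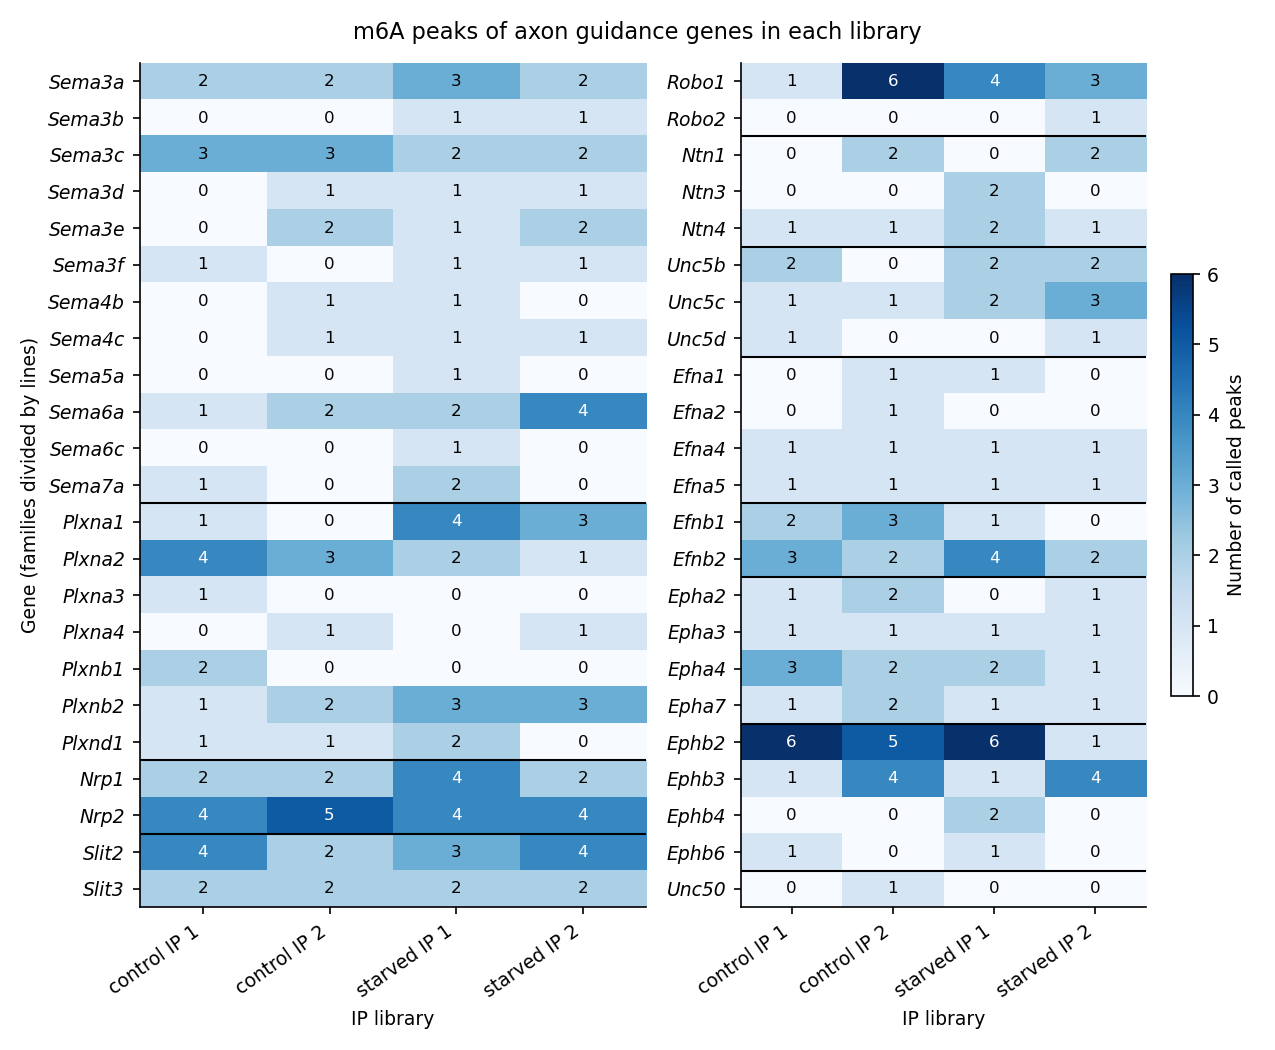
Number of called m6A peaks for each of the 46 genes (vertical axis, families divided by lines) in each of the 4 IP libraries (horizontal axis). Robo1 varied from 1 to 6 peaks between the control libraries, and Ephb2 from 6 to 1 between the starved libraries.

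Genes recurred between libraries more than sites did, but a gene also counts when different regions are called in different libraries. The comparison with all genes did not match the number of peaks per gene. A peak was called in all 4 libraries for 20 genes (43.5%, against 29.2% of all genes with a peak), in 3 libraries for 9, in 2 for 8 and in 1 for 9 (19.6%, against 27.9% of all genes). Of these 20 genes, 10 had at least 1 region that was itself called in all 4 libraries: Sema3a, Sema3c, Plxnb2, Nrp1, Nrp2, Slit2, Slit3, Efnb2, Epha3 and Ephb2. The other 10 had no region called in all 4 libraries: Sema6a, Plxna2, Robo1, Ntn4, Unc5c, Efna4, Efna5, Epha4, Epha7 and Ephb3. Efna5, a membrane-anchored A-type ephrin, had no region called in more than 1 library, with 4 peaks at 4 separate regions and fold enrichments of 5.26, 5.13, 2.49 and 3.48. Of the 146 regions, 84 (57.5%) were called in 1 library, 32 in 2, 18 in 3 and 12 (8.22%) in all 4. Over all 21168 regions 56.2% were called in 1 library and 10.7% in all 4.

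By signalling system, semaphorins with their plexin and neuropilin receptors had 24, 26, 36 and 28 peaks. The starved libraries were the highest pair, by 7 peaks in the mean (25 ± 1.41 against 32 ± 5.66, SD, n = 2, exact permutation p = 0.333). The difference was 3 without starved library 1 and 11 without starved library 2, and with a false discovery rate under 20% the groups overlapped (difference 8.5, exact permutation p = 0.667, n = 2). Slit and Robo genes had 7, 10, 9 and 10 peaks, with overlapping groups (difference 1, exact permutation p = 1, n = 2). With a false discovery rate under 20% their difference was 5, with the groups apart (exact permutation p = 0.333, n = 2). That limit also kept a larger share of all peaks in both starved than in both control libraries. Netrins and Unc5 receptors had 5, 4, 8 and 9 peaks, and here too the groups did not overlap (4.5 ± 0.707 against 8.5 ± 0.707, SD, n = 2, exact permutation p = 0.333). Of their 18 regions, none was called in all 4 libraries (against 10.7% of all regions) and 13 (72.2%, against 56.2%) were called in 1. With so few regions this difference was not tested. Ephrins and Eph receptors had 21, 25, 22 and 13 peaks, and starved library 2 alone lay below the rest (difference −5.5, exact permutation p = 0.667, n = 2). Among peaks with a false discovery rate under 20% that difference turned to 1.

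**Figure D2:**
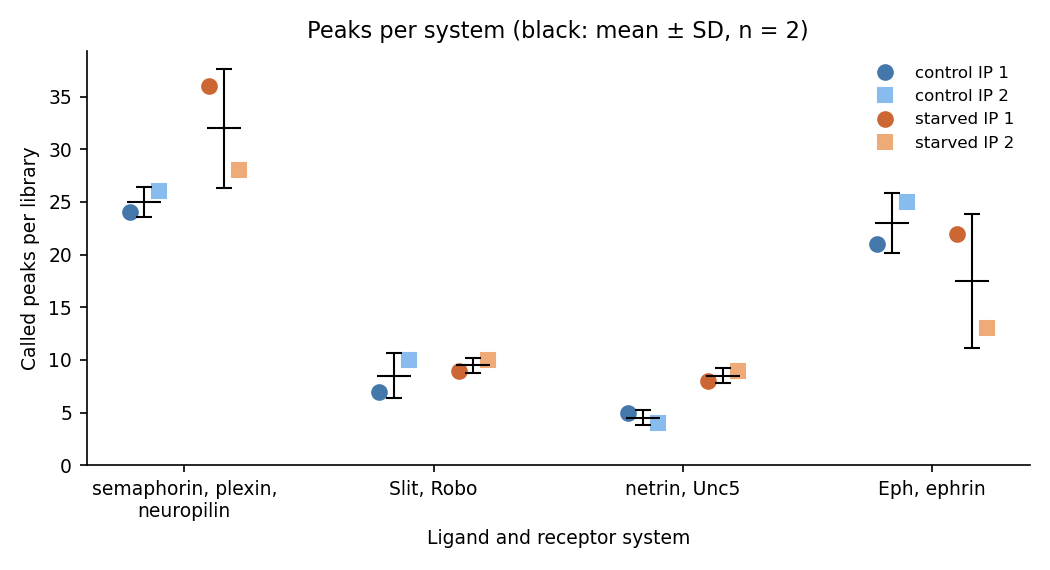
Called m6A peaks per IP library (vertical axis) for each ligand and receptor system (horizontal axis); points are libraries and black marks give the mean ± SD (n = 2). The control and starved points are apart for semaphorins, plexins and neuropilins and for netrins and Unc5, and overlap for the other systems.

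Ligands took 38.6%, 43.1%, 45.3% and 45% of the family peaks, lower in both control than in both starved libraries (40.8% ± 3.17 against 45.2% ± 0.236, SD, n = 2, exact permutation p = 0.333). The 23 ligand genes had 7 of their 57 regions called in all 4 libraries (12.3%), and the 22 receptor genes 5 of 88 (5.68%). Over all regions the share was 10.7%, and the difference between ligands and receptors was not tested. The median fold enrichment of all axon guidance peaks on the log2 scale was 3.88, 3.99, 4.03 and 3.61. Starved library 1 was the highest and starved library 2 the lowest, so the groups overlapped (difference −0.11, exact permutation p = 1, n = 2).

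Among the ligands, Sema3c had the most peaks of the semaphorins, 10 in all (3, 3, 2 and 2). Sema3c is a secreted class 3 semaphorin that binds neuropilins and is known for its part in outflow tract development. Its region in coding exon 12 of 18, chr5:17694649-17694865, had fold enrichments of 29.25, 110.11, 46.46 and 86.83, and all 4 peaks scored 3100. The control values bracketed the starved ones (log2 difference 0.16, exact permutation p = 1, n = 2). A region across its stop codon in exon 18 was also called in all 4 libraries (14.68, 30.55, 26.94 and 16.36). A further region in the 3′ UTR, chr5:17729180-17729656, was called in both control libraries only (21.89 and 50.33) and held no GGAC. All 10 Sema3c peaks lay in these 3 regions.

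Sema3a, a repulsive secreted semaphorin, had a region across the stop codon in exon 17 in all 4 libraries (32.21, 19.81, 13.11 and 30.09), with overlapping groups. Sema3b, another secreted semaphorin, was called in both starved libraries only, at 19.8 and 82.19, across its stop codon in exon 20 (chr9:107598311-107599061). That was its only region, and its peaks in the starved libraries overlapped only in part. The remaining semaphorins had 1 to 9 peaks each.

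Of the Slits, repulsive ligands of Robo receptors, Slit2 had 13 peaks (4, 2, 3 and 4) in 7 regions, of which 5 were called in 1 library. The Slit2 region called in all 4 libraries, chr5:48182246-48182507, covered 72 exonic bp of exon 6 and held no GGAC there. Its fold enrichments were 77.3, 12.81, 19.91 and 18.67, so control library 1 alone was high and control library 2 was the lowest of all. Slit3 had a region in coding exon 35 of 36 in all 4 libraries, at 27.46, 26.06, 19.12 and 45.7. The starved values lay on either side of the control values. A separate Slit3 region across the stop codon in exon 36, chr11:35707907-35708507, was called in both starved libraries only (15.36 and 9.48).

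Netrins are laminin-related secreted cues. Ntn4 had the most netrin peaks, 5 (1, 1, 2 and 1), in 2 regions. In coding exon 2, chr10:93644471-93645000, it was called in both starved libraries only, at 67.56 and 8.81. Its region across the stop codon was called in 3 libraries, at 4.33, 6.65 and 5.53, and not in starved library 2. Ntn1 had 4 peaks in 4 separate regions, 2 of them in control library 2 and 2 in starved library 2.

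The ephrins were counted by type, and with so few regions the types were not tested against each other. A-type ephrins had 11 peaks with none of their 8 regions in all 4 libraries, where 10.7% of all regions were called. Efna4, with 4 peaks, had a 3′ UTR region in 3 libraries (9.32 in control 2, then 7.53 and 9.69). Among the B-type ephrins, transmembrane ligands, Efnb2 had 11 peaks (3, 2, 4 and 2) and 2 regions called in all 4 libraries. No other region of the 7 in B-type ephrins was called in all 4. Efnb2, a ligand of EphB receptors, marks arterial endothelium and acts in vessel and somite patterning. Its region in coding exon 2, chr8:8639206-8639489, had fold enrichments of 35.12, 30.72, 58.03 and 11.1, with the starved values above and below the control values.

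The other Efnb2 region, in exon 5, joined 6 overlapping peaks over 2034 bp from the end of the coding sequence into the 3′ UTR (chr8:8618862-8620895, 14 GGAC). Its fold enrichments were 8.96, 10.47, 36.06 and 12.21. Both starved values lay above both control values, the single case among the 12 regions called in all 4 libraries (8.33%, against 22.9% of all such regions). The log2 difference was 1.12 (exact permutation p = 0.333, n = 2) and fell to 0.33 at its lowest when 1 library was left out. The peak at 36.06 lay at the stop codon and overlapped the peak of control library 2 and a peak of control library 1 at 6.88. The higher value of control library 1, 8.96, came from a separate stretch of the 3′ UTR. The peaks of control library 1 had false discovery rates of 21.09% and 21.29%, so with a limit of 20% the region was no longer called in all 4 libraries and the ordering was lost. Efnb1 was called in coding exon 2 in both control libraries only (chrX:99145292-99145569, 6.55 and 7.86).

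**Figure D3:**
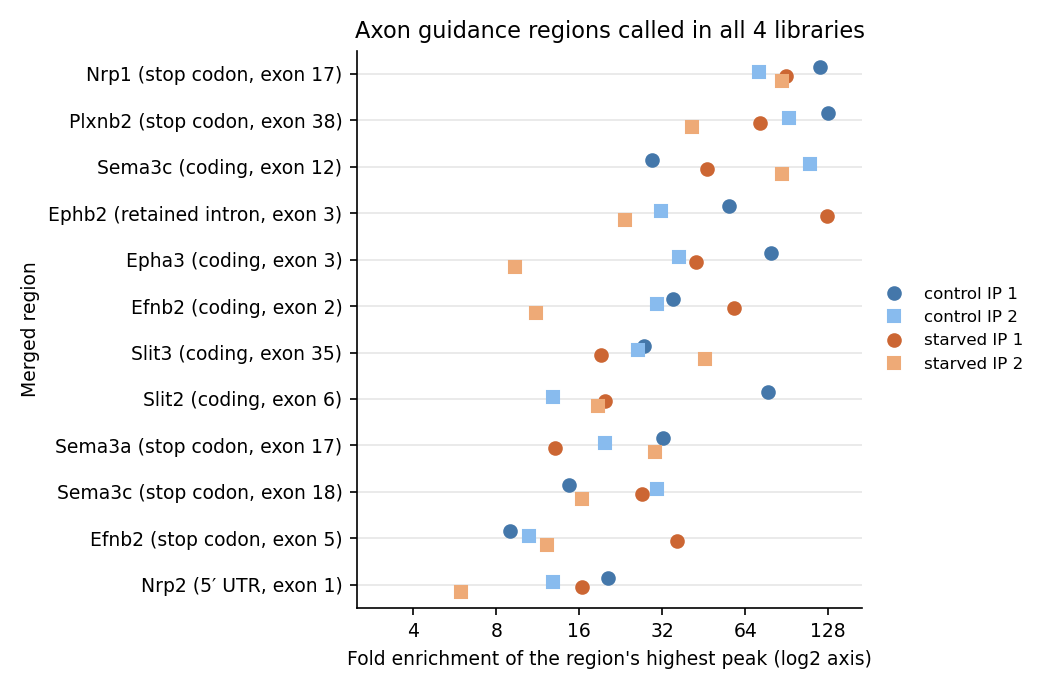
Fold enrichment of the highest peak (horizontal log2 axis) in each of the 12 axon guidance regions called in all 4 libraries (vertical axis, gene with transcript segment and exon); each point is 1 library. Only Plxnb2 has both control points above both starved points, and only the Efnb2 region in exon 5 the reverse.

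Among the receptors, plexins are transmembrane proteins with an intracellular GTPase-activating domain. Plxnb2, a receptor of class 4 semaphorins, had 9 peaks (1, 2, 3 and 3). Its region across the stop codon and into the 3′ UTR in the last exon, 38 of 38, spanned chr15:89155546-89156385 with fold enrichments of 127.2, 92.14, 72.53 and 40.97. Both control values lay above both starved values, also a single case of 12 (8.33%, against 18% of all regions called in all 4 libraries). The log2 difference was −0.99 (exact permutation p = 0.333, n = 2), and it ranged from −1.40 to −0.58 with 1 library left out. All 4 peaks scored 3100, so their scores do not rank them.

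A separate Plxnb2 region, in exon 4 over the start of the coding sequence, chr15:89166941-89168027, was called in both starved libraries only, at 8.29 and 4. Plxna1, a receptor used by class 3 semaphorins with neuropilins, was called over 3012 bp of its last exon in both starved libraries only (chr6:89316460-89319471, 12.47 and 3.25). The false discovery rates of those Plxna1 peaks reached 71.77%. Plxna2 had the most peaks of the plexins, 10 (4, 3, 2 and 1). No Plxna2 region was called in all 4 libraries, and its coding region in exon 2 reached 11.85, 18.63 and 77.54 without a peak in starved library 2.

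Neuropilins bind class 3 semaphorins and vascular endothelial growth factors. The last exon of Nrp1 had the highest enrichment by geometric mean of the regions called in all 4 libraries. Its values were 119.24, 71.83, 89.68 and 87.34, and the control values bracketed the starved ones (log2 difference −0.06, exact permutation p = 1, n = 2). All 4 peaks began at the first base of the exon, and all scored 3100. At 2457 bp (chr8:128502525-128504981) it was also the longest of the 12. The GENCODE model used here ended inside it, while the last exon of the RefSeq model ran on to position 128505476. Nrp2 had 17 peaks (4, 5, 4 and 4) spread over 10 regions, 6 of them called in 1 library. Its region over the 5′ UTR in exon 1, the single 5′ UTR region of the 12, had values of 20.35, 12.83, 16.39 and 5.97.

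Robo1, a receptor for Slits, had 14 peaks, but 1, 6, 4 and 3 by library. In coding exon 21 it was called in both control libraries only (chr16:73004410-73004745, 54.92 and 29.97). Its 5′ UTR region in exon 1 was called in control 2, starved 1 and starved 2 (21.41, 61.52 and 10.8). Robo2 had 1 peak, at 125.55 in starved library 2.

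Unc5 receptors mediate repulsion from netrins. Unc5c had 7 peaks (1, 1, 2 and 3) in 3 regions, with a region over coding exon 2, 222 of its 412 bp exonic, at 15.62, 36.02 and 58.72 in control 2, starved 1 and starved 2. Unc5b had 6 peaks at 6 separate regions, each called in 1 library. Unc5d had the highest fold enrichment of the ligands and receptors chosen by name, 399.04 in starved library 2, across its stop codon. The same region stood at 45.01 in control library 1 and was not called in the remaining pair of libraries, 1 of each group.

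Among the Eph receptor tyrosine kinases, Epha3 had 1 peak per library, always in coding exon 3 (chr16:63773064-63773570). Fold enrichments were 79.31, 36.85, 42.37 and 9.34. Starved library 2 was far below the rest, while starved library 1 lay between the control values (log2 difference −1.44, the largest of the 12 in size, exact permutation p = 0.667, n = 2). Epha4, which binds both ephrin types, had 8 peaks (3, 2, 2 and 1) in 5 regions. A pair of them were called in both control libraries only: coding exon 5 (chr1:77426551-77426863, 49.96 and 11.55) and the 3′ UTR (chr1:77372910-77373221, 16.35 and 13.23). Another Epha4 region, reached 303.88 in starved library 2 and was called in no other library, but held 17 exonic bp, in coding exon 8, of its 201 bp.

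Ephb2, a receptor of B-type ephrins, had the most peaks of any gene here, 18, but 6, 5, 6 and 1 by library. Its single region in all 4 libraries, chr4:136769714-136770404, lay in an exon of an annotated retained-intron transcript and touched no exon of the coding transcript used for placing peaks. Fold enrichments there were 55.67, 31.56, 126.14 and 23.36, with the starved values above and below the control values (log2 difference 0.37, exact permutation p = 1, n = 2). A 3′ UTR region of Ephb2 was called in both control libraries only (chr4:136652957-136653749, 5.32 and 16.92). Ephb3 had 10 peaks, but 1, 4, 1 and 4 by library.

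In all, 5 regions were called in both starved libraries and neither control library (3.42%, against 3.2% of all regions): those of Sema3b, Slit3, Ntn4, Plxna1 and Plxnb2. The reverse held for 6 regions (4.11%, against 4.15% of all regions): those of Sema3c, Efnb1, Robo1, Ephb2 and a pair in Epha4. Both shares were near those of all regions. With a false discovery rate under 20% required of every peak, 3 regions were starved-only and 1, in Sema3c, control-only. Of the 5 starved-only regions above, only that of Slit3 kept its peaks in both starved libraries. The others counted were regions of Sema3a and Unc5c. They became starved-only because their peaks in control library 2, at 44.71% and 29.04%, were dropped.

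**Figure D4:**
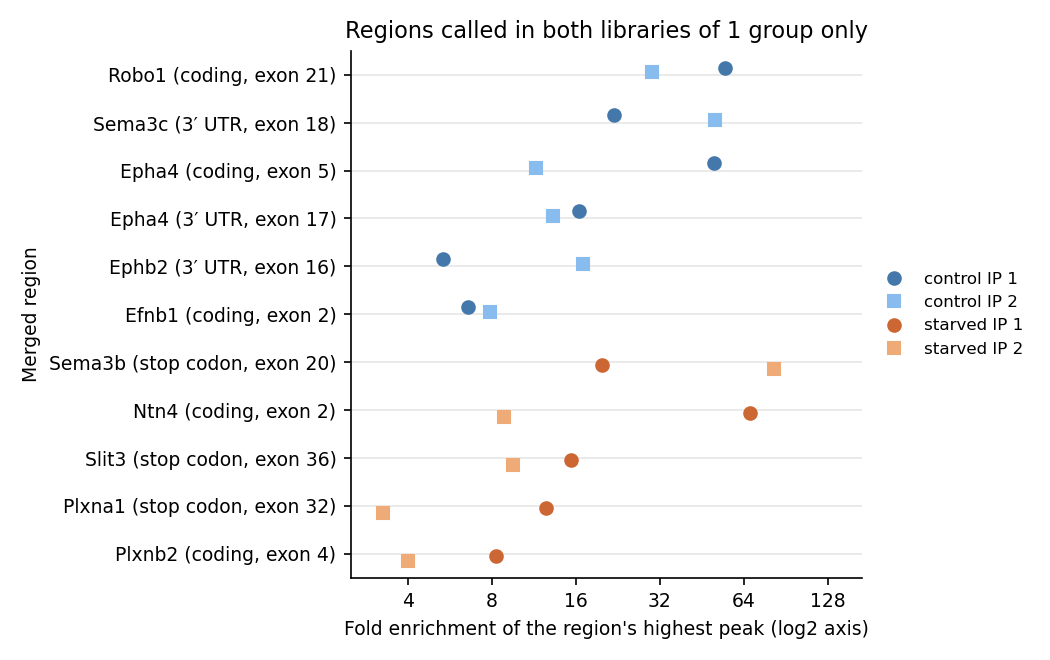
Fold enrichment of the highest peak (horizontal log2 axis) in the 11 axon guidance regions called in both libraries of 1 group and in neither of the other (vertical axis, gene with transcript segment and exon); each point is 1 library. The 6 control-only regions run from 5.32 to 54.92 and the 5 starved-only regions from 3.25 to 82.19.

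Over the 12 regions called in all 4 libraries, the median log2 fold enrichment was 5.07, 4.94, 5.29 and 4.38. Starved library 1 was the highest and starved library 2 the lowest (difference −0.17, exact permutation p = 1, n = 2). The starved minus control difference was positive in 4 of 12 regions, with a median of −0.21 and a range of −1.44 to 1.12. Over all 2257 regions called in all 4 libraries it was positive in 54.2%, with a median of 0.10. The replicates of the axon guidance regions differed by a median ratio of 1.64 in control and 2.34 in starved libraries (1.63 and 1.80 over all such regions), and the groups overlapped in 10 of the 12.

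By place in the transcript, 229 of the 258 peaks could be placed on a coding transcript. Their centres lay in the coding sequence for 101, in the 3′ UTR for 84, in the 5′ UTR for 23 and within 100 nt of the stop codon for 21. The coding share was 48.1%, 38.6%, 50% and 38.5%, with overlapping groups. The share at the stop codon was 7.69%, 12.3%, 7.35% and 9.62%, against 11.5% to 12.4% of all peaks. Peaks in the 5′ UTR made up 5.77%, 14.0%, 10.3% and 9.62%, above the 4.13% to 4.89% of all peaks in each of the 4 libraries. Nrp2 had 4 of these peaks, and Sema3a, Robo1 and Efnb1 had 3 each. The last exon held 48.1%, 49.1%, 45.6% and 59.6% of the axon guidance peaks, below the share of all peaks in each library (58.5% to 61.8%). The exons that held them had shorter medians, 938.5 to 1187 nt against 1427 to 1554 nt, but among internal exons the median was longer than that of all peaks in 2 of 4 libraries and shorter in the other 2. These are descriptions of libraries that share genes and sites, and no test was made.

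GGAC was present in the 200 nt of transcript around 69.2%, 80.7%, 73.5% and 76.9% of axon guidance peak centres. All peaks had it in 62.2% to 64.7%, so the share was higher for axon guidance genes in 4 of 4 libraries, by 7.02 to 17.0 percentage points. The groups overlapped (difference 0.26 points, exact permutation p = 1, n = 2). In a window of 100 nt the starved shares lay above the control shares, by 11.2 points (exact permutation p = 0.333, n = 2). Of the 146 regions, 129 (88.4%) held a GGAC somewhere in an exon. So did 11 of the 12 regions called in all 4 libraries and 71 of the 84 called in 1 (84.5%). These regions were up to 3012 bp long, and the share over all regions was not computed. Whether the counts are particular to axon guidance genes is therefore unknown. For 143 peaks (55.4%) an edge coincided with an exon edge, against 48.2% of all peaks.

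**Figure D5:**
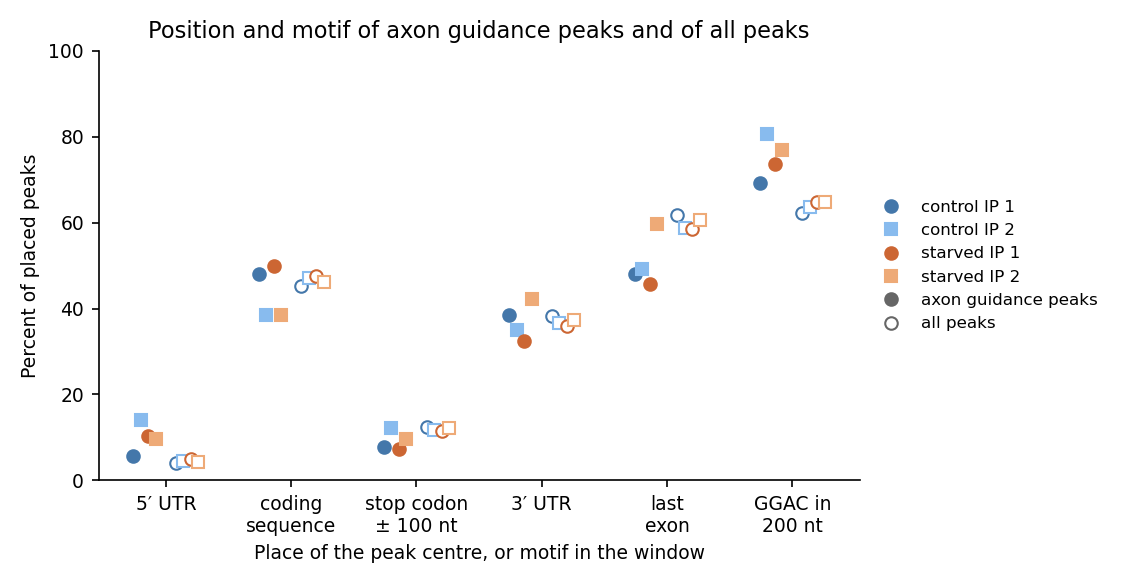
Percent of placed peaks (vertical axis) by transcript segment of the peak centre, in the last exon, and with GGAC within a 200 nt window (horizontal axis), for axon guidance peaks (filled) and all peaks (open) in each IP library. Filled points lie above open points for the 5′ UTR and for GGAC, and below them for the last exon, within each library.

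Of 55 further genes of the same pathways, from co-receptors to cytoskeletal effectors, 39 had a peak. The share of all annotated genes was not computed for comparison. Of these 39 genes, 14 had a peak in all 4 libraries, as did 29.2% of all genes with a peak. They carried 56, 46, 53 and 45 peaks. Of their 112 regions, 11 were called in all 4 libraries (9.82%, against 10.7% of all regions), 6 in both starved libraries only (5.36%, against 3.2%) and 5 in both control libraries only (4.46%, against 4.15%). In Srgap1, a GTPase-activating partner of Robo receptors, 1 region of the 11 had both starved values above both control values (17.75, 5.05, 69.3 and 20.38). That is 9.09% of the 11, against 22.9% of all regions in all 4 libraries. The opposite order held for 3 of the 11 (27.3%, against 18%), regions of Rgmb, a ligand of the netrin receptor neogenin (14.1, 21.76, 8.64 and 7.86), of the exchange factor Trio (14, 18.24, 3.69 and 11.62) and of the kinase Rock1 (426.55, 473.34, 220.23 and 171.01). Dcc, the attractive netrin receptor, had no peak in any library, and its relative Neo1 had 2, 0, 1 and 1.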

How the data were processed

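MeRIP-seq values came from 4 IP libraries of 8 samples, grouped by their titles. Per the study's methods, reads were trimmed with Cutadapt and aligned to mm10 with HISAT2 2.0.4 (version per the submitters' processing notes), and the authors called peaks per IP library with MACS2 over the matching input and kept those on mRNA exons. The lists use column names of an older MACS, so the caller version is uncertain. The authors' deposited fold enrichment is the ratio of the IP signal in a peak to its input background. The deposited score is minus 10 times log10 of the p-value. The deposited false discovery rate is in percent. A deposited table of the authors' own comparison (fold change, p-value, adjusted p-value, direction) was not used. 0 per-sample columns went unmapped.

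Peaks were taken as deposited, with no filter, and merged at 1 bp of overlap. A region's value in a library is its highest peak. Peak centres were placed on the longest coding transcript of GENCODE M21 (GRCm38, the assembly of mm10), and GGAC was sought on the transcript strand. Library values of the groups were set against each other by a two-sided exact permutation test, whose p measures only the spread between these libraries. Axon guidance peaks and all peaks were compared without a test. The work was done in Python 3.11.15 with matplotlib 3.10.9, scipy 1.17.1, numpy 2.4.6 and pandas 2.3.3. On simulated data (2000 regions, 2000 transcripts) 6 of 6 quantities were recovered. Named genes were the one with most peaks per family (first in the alphabet if tied), every region called in both libraries of 1 group only, regions in all 4 libraries whose groups did not overlap, the 5 with the highest geometric mean, and the longest. Others were named after their values were seen. The members and gene lists were chosen with earlier results of these data known. Alternatives were a false discovery rate under 20%, the best 8974 peaks of each list, current gene symbols, 50% overlap, a 100 nt motif window, the transcript named in the list, each library left out and a replicate block. Placing peaks on the longest coding transcript that holds the centre was added after seeing the data. The sequence of 1 further site is not reported here.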

Additional observations from a re-analysis of the deposited data

How the results depend on the processing

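Of 141 alternative values, 121 kept their direction or, for counts of regions, their approximate size, and 16 reversed. The 121 include current gene symbols, which renamed 0 axon guidance peaks and left every value the same. They also include the replicate block, which keeps each difference by construction. The count is therefore no measure of stability. Since no p below 0.333 can arise, the tests say nothing of stability. With a false discovery rate under 20%, the starved minus control difference turned to 1 for Eph and ephrin peaks, 0.045 for the median log2 fold enrichment of regions in all 4 libraries, −16.9 points for the coding share and 0.10 points for the stop codon share. Under the same limit there were 3 starved-only, 1 control-only and 6 all-library regions, not all of them in that pattern without the limit. In 0 regions were both starved values above both control values, as the Efnb2 region was lost. Differences that kept their direction grew to 20 for peaks per library, 5 for Slit and Robo, 6 for netrins and Unc5 and 5.5 for genes with a peak, and the median log2 fold enrichment of the peaks differed by −0.30. The limit kept a larger share of all peaks in both starved than in both control libraries. With only the best 8974 peaks of every list, the coding share turned to −0.382 points and the GGAC share to −0.608 points. A window of 100 nt moved the GGAC share to 11.2 points. With the transcript named in the list, the coding share turned to −1.08 points. The cause of these changes was not tested, beyond the smaller number of peaks under the first limits.

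Leaving out 1 library at a time, the difference ranged from −1.5 to 13.5 for peaks per library (below 0 without starved library 1), −0.5 to 2.5 for Slit and Robo peaks (below 0 without control library 1), −4.88 to 6.66 points for the coding share, −3.80 to 0.792 points for the stop codon share and −5.48 to 6.00 points for the GGAC share. It ranged from 3 to 11 for semaphorins, plexins and neuropilins, −10 to −1 for ephrins and Eph receptors and 0.5 to 5.5 for genes with a peak (each at its lowest without starved library 1 and at its highest without starved library 2), and from 2.09 to 6.57 points for the ligand share (without control libraries 1 and 2). It ranged from −0.33 to 0.10 for the median log2 fold enrichment of the peaks and from −0.62 to 0.28 for that of the regions in all 4 libraries, above 0 in both without starved library 2. Counts of regions over 4 libraries have no value with a library left out. A replicate block gave the same differences (6 for peaks per library), with 0.5 as the smallest p of its exact sign-flip test. Same-numbered libraries did not deviate together (r = −0.0173 over 2257 regions), so the numbers were not taken to pair the samples.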
